A study of Homo sapiens with 8 samples.

Results

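The genes described here were 10 genes of the primary, or azurophil, granules: MPO, ELANE, PRTN3, AZU1, CFD, CTSG, LYZ, RNASE2, RNASE3 and DEFA4. They were chosen by name for the granule content they encode, out of 20098 protein-coding genes in the annotation. The cells were HL-60, an established human promyelocytic leukemia line, treated with 1 µM all-trans retinoic acid (ATRA) dissolved in ethanol, or with the same volume of ethanol alone as the control, for 4 days. Both the ATRA-treated and the control cells were the same unmodified line, grown in the same medium, which was renewed with ATRA or ethanol during the treatment. HL-60 is a leukemia line and not a normal promyelocyte population. Chromatin immunoprecipitation followed by sequencing (ChIP-seq) was performed with antibodies against H3K4me3 and H3K27ac, with 2 replicates per condition, which gave 8 libraries.

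Azurophil granules are the first storage granules to form in a maturing neutrophil, at the promyelocyte stage. Many of their genes are strongly transcribed in promyelocytes and are shut down as the cell matures. The stored proteins stay in the granules and are later released onto ingested microbes. The content falls into an oxidizing enzyme (MPO), a family of serine proteases and their inactive relative (ELANE, PRTN3, CTSG, CFD and AZU1) and antimicrobial enzymes and peptides (LYZ, RNASE2, RNASE3 and DEFA4). H3K4me3, trimethylation of lysine 4 of histone H3, marks active promoters and can spread over the bodies of strongly transcribed cell identity genes. H3K27ac, acetylation of lysine 27, marks active promoters and enhancers.

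For every gene, the measurement was the length of DNA, in bp, under the broad peaks that the authors called in a library, within the gene body and 10 kb on each side (its window). A second measurement was the length under peaks within 1 kb of the 5′ end of the gene on either side (the 5′ interval). Positions are on hg19 (GRCh37). The H3K4me3 libraries had 13241 to 16487 peaks covering 47.7 to 63.2 Mb, and the control replicate 2 library was the lowest on both counts. The H3K27ac libraries had 15457 to 39332 peaks covering 28.8 to 86.1 Mb, with control replicate 1 the lowest and ATRA replicate 2 the highest. The read depth of the peaks is unknown, and a window without a peak is a window where no peak was called, not one shown to lack the mark. In bulk chromatin, a mark lost from some of the cells and a weaker mark in all of them cannot be told apart. Of the myeloid and promyelocytic marker genes, 7 of 7 had an H3K4me3 peak over the TSS in all 4 libraries, and of the markers of differentiating granulocytes, ITGAM and CYBB had one in both ATRA libraries and in neither control library, and NCF1 and FCGR1A in none. The TSS of CD14, CD3D, CD3E, HBB, ALAS2 and ALB, which mark monocytes, T cells, erythroid cells and liver, had no H3K4me3 peak in any library. CD79A, a B cell gene, had one in 3 libraries, and GATA1, an erythroid and megakaryocyte factor, in both control libraries only. Their part in the results below was not tested.

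RefSeq promoter sequences, from 250 bases before to 50 bases after the start (GRCh38.p14), were held for PRTN3, AZU1, CFD, CTSG, RNASE2 and RNASE3, and each matched GRCh37 at 1 place. The promoters of PRTN3 and CFD are shown because H3K4me3 peaks lay over them in ATRA libraries (for CFD, in 1 library) and in no control library, that of AZU1 because the same held for H3K27ac, and those of RNASE2 and RNASE3 because these near-identical promoters carried different H3K4me3. Capitals mark matches, on either strand, to GAGGAA (the core bound by PU.1), TTGCGCAA and TTNNGNAA (the C/EBP palindrome and a relaxed form of it), TGTGGT (RUNX), AACNG (MYB), AGGTCA (the core element of the retinoic acid receptor) and TATAAA (the TATA box). Sequences run 5′ to 3′ on the strand of the gene, which is the plus strand for all 5.
PRTN3, chr19:840749-841048: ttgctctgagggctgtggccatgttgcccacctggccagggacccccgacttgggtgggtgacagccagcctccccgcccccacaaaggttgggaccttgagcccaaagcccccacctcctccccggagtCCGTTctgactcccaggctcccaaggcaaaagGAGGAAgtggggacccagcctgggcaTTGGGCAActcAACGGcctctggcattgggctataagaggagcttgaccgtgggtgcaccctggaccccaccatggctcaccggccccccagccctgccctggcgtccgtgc
AZU1, chr19:827587-827886: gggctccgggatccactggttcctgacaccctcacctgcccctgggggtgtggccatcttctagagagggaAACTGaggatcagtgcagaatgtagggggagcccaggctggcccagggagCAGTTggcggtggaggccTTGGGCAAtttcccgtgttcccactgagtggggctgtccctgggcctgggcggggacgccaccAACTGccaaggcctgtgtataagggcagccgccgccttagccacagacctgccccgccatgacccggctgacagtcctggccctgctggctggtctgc
CFD, chr19:859414-859713: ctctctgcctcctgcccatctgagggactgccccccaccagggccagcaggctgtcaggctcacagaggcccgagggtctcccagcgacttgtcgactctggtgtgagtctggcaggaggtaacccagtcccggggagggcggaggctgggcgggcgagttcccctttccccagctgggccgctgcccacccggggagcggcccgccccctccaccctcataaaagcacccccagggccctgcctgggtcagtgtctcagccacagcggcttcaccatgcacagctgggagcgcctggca
RNASE2, chr14:21423396-21423695: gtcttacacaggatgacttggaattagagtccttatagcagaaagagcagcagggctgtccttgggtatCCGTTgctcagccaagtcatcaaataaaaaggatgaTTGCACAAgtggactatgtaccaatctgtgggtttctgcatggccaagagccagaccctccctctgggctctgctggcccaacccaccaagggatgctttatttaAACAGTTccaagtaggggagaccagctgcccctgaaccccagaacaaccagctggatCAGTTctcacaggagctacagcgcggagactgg
RNASE3, chr14:21359294-21359593: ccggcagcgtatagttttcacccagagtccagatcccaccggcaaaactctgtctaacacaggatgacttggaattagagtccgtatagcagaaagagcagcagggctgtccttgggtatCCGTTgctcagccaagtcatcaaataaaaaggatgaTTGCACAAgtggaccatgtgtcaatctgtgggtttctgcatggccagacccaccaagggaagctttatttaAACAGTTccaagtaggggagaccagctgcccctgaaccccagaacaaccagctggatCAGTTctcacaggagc

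The relaxed C/EBP motif was present in 5 of the 6 promoters and absent from that of CFD, whose promoter matched none of the motifs, while 36.8% of all 35116 RefSeq promoters of this length held it. Counted in bases from the start, it began at -62 in PRTN3 and at -111 in AZU1. The PU.1 core was found at -88 in PRTN3 and at 2 places in CTSG, against 27.9% of all promoters. AACNG was present in 5 of the 6, against 77.2% of all promoters, and in RNASE2 and RNASE3 a pair of its matches overlapped on opposite strands and appears as 1 stretch of capitals. No promoter of the 6 matched the C/EBP palindrome or the motifs of RUNX, the retinoic acid receptor and the TATA box, which were present in 0.151%, 13.1%, 13.8% and 11.5% of all promoters. The number of CpG was 9 in PRTN3 and in AZU1, 13 in CFD, 3 in CTSG and in RNASE2 and 5 in RNASE3, against a median of 14 over all promoters. These matches describe letters in the window and were not tested for binding.

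To determine how H3K4me3 over these genes differed upon ATRA induction, the covered length was compared between the ATRA and control libraries. The genes differed in direction. By length under peaks, the ATRA libraries had more H3K4me3 at PRTN3 and CFD, in the region shared by AZU1, PRTN3, ELANE and CFD. RNASE2 had less, and MPO carried a very broad domain of nearly the same length in all 4 libraries. Of the 10 genes, 8 had H3K4me3 in at least 2 libraries and could be tested, and RNASE3 and DEFA4 had no peak in any library. Both ATRA libraries lay above both control libraries for 5 genes (MPO, ELANE, PRTN3, CFD and LYZ), beside 42% of all 13387 windows tested. Both lay below for RNASE2, beside 3.97% of all windows. After scaling to the same covered length in every library, 3 genes remained above (ELANE, PRTN3 and CFD; background 16.5%) and RNASE2 below (background 25.4%). The median log2 change (ATRA/control, with 1000 bp added) of the 8 genes was 0.35, and that of all windows was 0.16. With 1 library left out, the median of the genes ran from 0.07 (without control replicate 2) to 0.69 (without control replicate 1).

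No gene of the 8 passed the limma test at an adjusted p of 0.05, for which 2 windows were called higher and 2 lower among all windows (0.0149% each). At an unadjusted p under 0.05 there were 4 genes (ELANE, PRTN3, CFD and RNASE2), and 1457 of all windows. The windows of ELANE, PRTN3 and CFD share peaks, so these are not independent of each other.

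**Figure D1:**
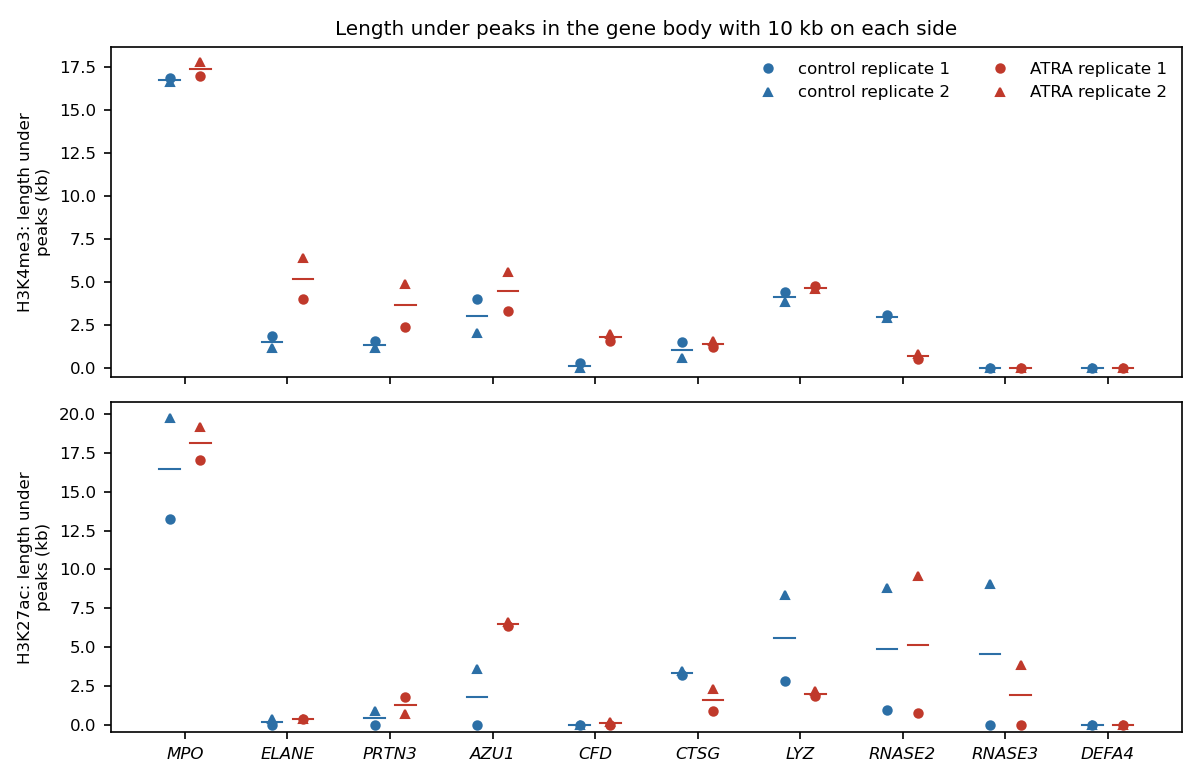
Length under H3K4me3 (top) and H3K27ac (bottom) peaks, in kb, within each gene body and 10 kb on each side. Circles are replicate 1 and triangles replicate 2, red for ATRA-treated and blue for control cells, and short lines are the means of 2 libraries. For H3K4me3, RNASE2 lay at 573 and 847 bp in the ATRA libraries and at 3079 and 2914 bp in the control libraries, while MPO lay at 16627 bp or more in all 4.

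MPO encodes myeloperoxidase, the heme enzyme that makes hypochlorous acid, and lies on chromosome 17 from 56347216 to 56358296 on the minus strand. Its window had 16973 and 17779 bp under H3K4me3 peaks in ATRA-treated cells and 16849 and 16627 bp in control cells. In each library a single peak of 15914, 16557, 16849 and 16627 bp (ATRA replicates 1 and 2, control replicates 1 and 2) covered the whole gene of 11081 bp. It reached 4321 to 4527 bp upstream of the TSS. These peaks were as long as or longer than 99.6% to 99.9% of the peaks of their library. The ATRA libraries were slightly longer only through separate short peaks upstream, and the log2 change was 0.05 ± 0.12 (SE, adjusted p = 0.882). With library scaling it was -0.17, and so its direction was not settled.

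The serine protease genes AZU1, PRTN3, ELANE and CFD lie side by side in this order on the plus strand of chromosome 19. AZU1 encodes azurocidin, a protease relative without activity that attracts monocytes, PRTN3 proteinase 3, ELANE neutrophil elastase, and CFD complement factor D. From 10 kb before AZU1 to 10 kb after CFD (815097 to 877884), H3K4me3 peaks covered 6763 and 11023 bp in the ATRA libraries and 5960 and 3246 bp in the control libraries. The ATRA libraries lay above the control libraries by 4290 bp on average (8893 ± 3012 against 4603 ± 1919 bp, SD, n = 2 each; exact two-sided permutation p = 0.333). This is the smallest p that 2 against 2 allows. Within replicate numbers the difference was 803 bp for replicate 1 and 7777 bp for replicate 2, so most of it came from the replicate 2 pair. The difference was 2160 bp without ATRA replicate 2 and 6420 bp without ATRA replicate 1.

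The H3K4me3 in this region fell into 4 stretches. The first, at 819661 to 823890, lay upstream of AZU1 over the start of the neighboring gene PLPPR3, and its lengths overlapped between conditions (2724 and 4142 bp with ATRA, 4060 and 2065 bp in the control). The second, inside PRTN3, measured 2423 and 4897 bp with ATRA and 1577 and 1181 bp in the control. Here the control peaks began 2347 and 2697 bp downstream of the PRTN3 start. In ATRA-treated cells peaks also covered the start itself, as a separate peak of 614 bp in replicate 1 and as part of 1 peak of 4897 bp in replicate 2. The deposited -log10 q of the peaks inside PRTN3 was 17.3 and 15.3 with ATRA and 27.5 and 11.8 in the control. The third, at the 5′ end of CFD, measured 1152 and 1784 bp with ATRA and 323 and 0 bp in the control. Its -log10 q was 28.8 and 7.12 with ATRA and higher, 40.3, in control replicate 1. The fourth, inside CFD, measured 464 and 200 bp with ATRA and 0 bp in both control libraries. No H3K4me3 peak lay in the gene bodies of AZU1 and ELANE in any library.

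**Figure D2:**
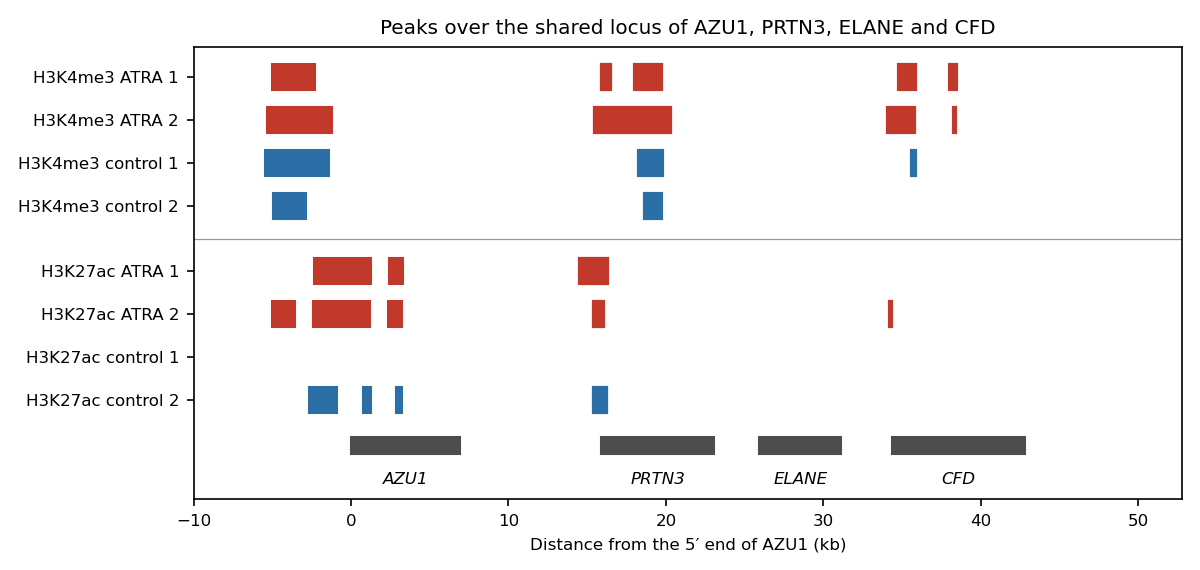
Peaks over the shared locus in the 8 libraries, by distance from the 5′ end of AZU1 in kb. Each row is a library (red, ATRA; blue, control; 1 and 2, replicates), each bar is a peak, and grey bars are the genes. H3K4me3 peaks cover the start of PRTN3 in both ATRA libraries and that of CFD in ATRA replicate 2, and neither start in the control libraries, no bar lies over ELANE, and H3K27ac control replicate 1 has no peak.

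PRTN3 (840999 to 848175) had 614 and 1457 bp of its 5′ interval under H3K4me3 with ATRA, and 0 bp in both control libraries. Of the 300-base promoter printed above, 55 and 300 bases lay under a peak with ATRA and 0 in both control libraries. Over the window, the log2 change was 0.92 ± 0.31 (SE, adjusted p = 0.429). CFD (859453 to 867884) had 598 and 1322 bp around its 5′ end with ATRA and 0 bp in the control, and only the ATRA replicate 2 peak covered the 5′ end itself. Its window had 1616 and 1984 bp with ATRA and 323 and 0 bp in the control (log2 1.28 ± 0.29; adjusted p = 0.355). Control replicate 2 had no peak there, so keeping only peaks found in both replicates leaves 0 bp in both control libraries. In log2 change, CFD was as high as or higher than 99.1% of all windows, and PRTN3 than 97.7%.

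The window of ELANE (851014 to 856247) had 4019 and 6410 bp of H3K4me3 with ATRA and 1900 and 1181 bp in the control (log2 1.28 ± 0.26; adjusted p = 0.328). All of it belonged to the peaks at PRTN3 and CFD, and the peak nearest to the ELANE 5′ end lay upstream, at -6143 to -5575 bp. The window of AZU1 (825097 to 832018) had 3338 and 5618 bp with ATRA and 4060 and 2065 bp in the control, and its log2 change was 0.44 ± 0.32 (adjusted p = 0.595). These values overlapped, and they belonged to the peaks at PLPPR3 and at the start of PRTN3.

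CTSG encodes cathepsin G, the remaining serine protease of the set, and lies apart from them on chromosome 14 (25042724 to 25045456, minus strand). A single H3K4me3 peak covered its TSS in every library, of 1235 and 1597 bp with ATRA and of 1532 and 611 bp in the control. The conditions overlapped, with control replicate 2 the lowest (log2 0.25 ± 0.31; adjusted p = 0.753). In contrast to the MPO domain, these peaks were short, as long as or longer than 12.0% to 33.5% of the peaks of their library.

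RNASE2 encodes the eosinophil-derived neurotoxin, a ribonuclease, and lies on chromosome 14 from 21423646 to 21424595 on the plus strand. Its window had 573 and 847 bp under H3K4me3 with ATRA and 3079 and 2914 bp in the control, each as a single peak. In both control libraries the peak covered the whole gene of 950 bp and reached 1274 and 995 bp upstream of the TSS. With ATRA, the replicate 2 peak reached 288 bp upstream, and that of replicate 1 began 353 bp inside the gene and left the TSS uncovered. The conditions did not overlap in the window or around the TSS (573 and 847 bp of the 5′ interval with ATRA, the whole interval and 1996 bp in the control).

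The log2 change of RNASE2 was -1.23 ± 0.21 (SE; unadjusted p = 0.00174, adjusted p = 0.262), and 19 of the 13387 windows, RNASE2 included, were as low. After scaling to equal covered length it was -1.37 with an adjusted p of 0.0488, a setting in which 0.217% of all windows were called lower. Leaving out each library in turn gave -1.34 to -1.11. The deposited -log10 q of the peak was 43.0 and 49.7 with ATRA and 47.7 and 3.60 in the control. Using only peaks with a -log10 q of at least 5 therefore removed the control replicate 2 peak, and the log2 change was then -0.24 (adjusted p = 0.922).

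**Figure D3:**
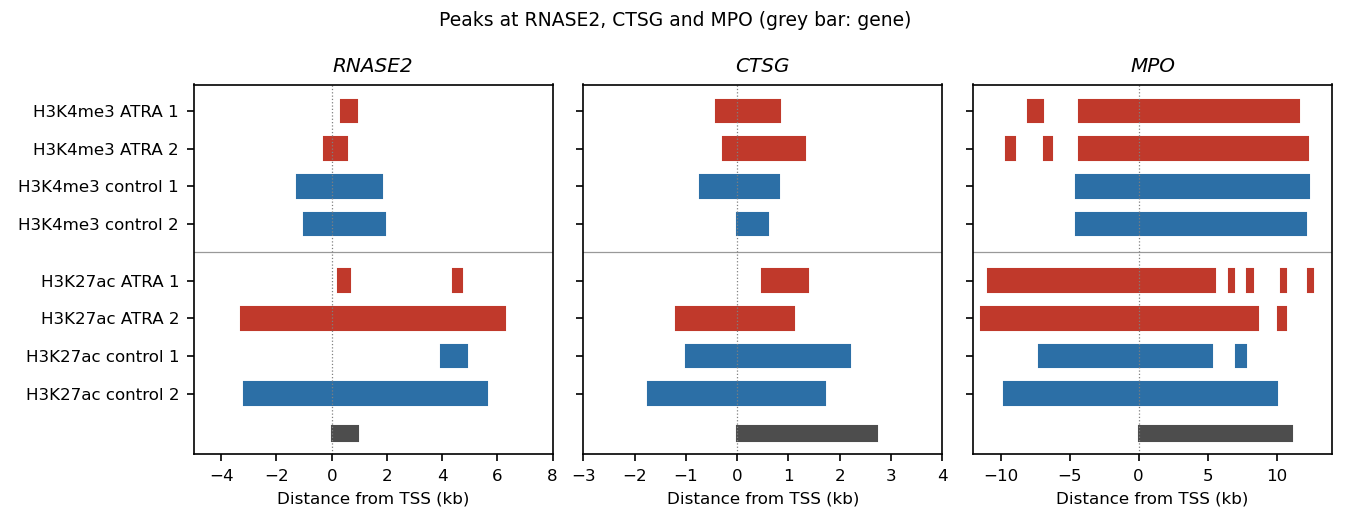
Peaks at RNASE2, CTSG and MPO in the 8 libraries, by distance from the TSS in kb along the direction of transcription (dotted line, TSS; grey bar, gene; red, ATRA; blue, control). The H3K4me3 peaks of RNASE2 are shorter with ATRA (573 and 847 bp) than in the control (3079 and 2914 bp), and those of MPO span the gene in all 4 libraries.

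RNASE3 encodes the eosinophil cationic protein, the closest relative of RNASE2, and lies upstream of it on the same chromosome (21359544 to 21360507). It had no H3K4me3 peak in any library, and the nearest one, 62828 to 64455 bp downstream, was that of RNASE2. The promoters of both genes matched at 243 of 249 aligned bases (97.6%), with 34 bases in gaps and a longest identical stretch of 86 bases. Reads that fit both genes equally well cannot be assigned to either. How the aligner treated them is not given in the sources used here, so the peak lengths at both genes are uncertain to that extent. DEFA4, a defensin gene on chromosome 8 in a cluster of similar copies, had no H3K4me3 peak in its window, and the nearest one lay 101463 to 101717 bp downstream.

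LYZ encodes lysozyme, which cuts bacterial cell walls, and lies on chromosome 12 from 69742161 to 69748014 on the plus strand. Its window had 4766 and 4629 bp of H3K4me3 with ATRA and 4460 and 3882 bp in the control. All of it belonged to 1 peak over the start of the neighboring gene YEATS4, 9479 to 10495 bp downstream of the LYZ start. The LYZ gene body had none. The log2 change was 0.14 ± 0.14 (adjusted p = 0.696), and with library scaling it was -0.05.

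At the level of the TSS, H3K4me3 covered the 5′ end of 3 and 5 of the 10 genes in the ATRA libraries and of 3 in each control library. Over all protein-coding genes, 53.0% and 52.2% had their TSS under an H3K4me3 peak in the ATRA libraries and 53.6% and 50.9% in the control libraries. MPO and CTSG were covered in all 4 libraries. ELANE, AZU1, LYZ, RNASE3 and DEFA4 were covered in none. Around the 5′ end, ATRA libraries lay above control libraries at PRTN3 and CFD, beside 7.34% of all 10621 5′ ends with the mark in at least 2 libraries. They lay below at RNASE2, beside 2.47%. PRTN3 and CFD had 0 bp in both control libraries. They entered this set only through their ATRA libraries and could only lie above, so their place there is no test.

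The same comparison was made for H3K27ac, where 8 of the 10 genes could be tested. By length under peaks, the window of AZU1 had more H3K27ac in the ATRA libraries and those of CTSG and LYZ had less. At RNASE2 the libraries differed by replicate number and not by treatment, and at RNASE3 only the replicate 2 libraries had peaks. Both ATRA libraries lay above both control libraries for AZU1 only, beside 45.5% of all 13384 windows, and below for CTSG and LYZ, beside 4.3% of all windows. After library scaling, AZU1 lay above (background 19.3%) and MPO, CTSG and LYZ below (3 genes; background 27.8%). The median log2 change of the 8 genes was 0.08, and that of all windows was 0.48. After scaling, these medians were -0.67 and -0.14. No gene was called by limma, and none had an unadjusted p under 0.05. None of all windows was called either, with 2508 at an unadjusted p under 0.05. This fit did not use the replicate number as a block. With that block, 2662 of all windows were called higher and 167 lower.

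**Figure D4:**
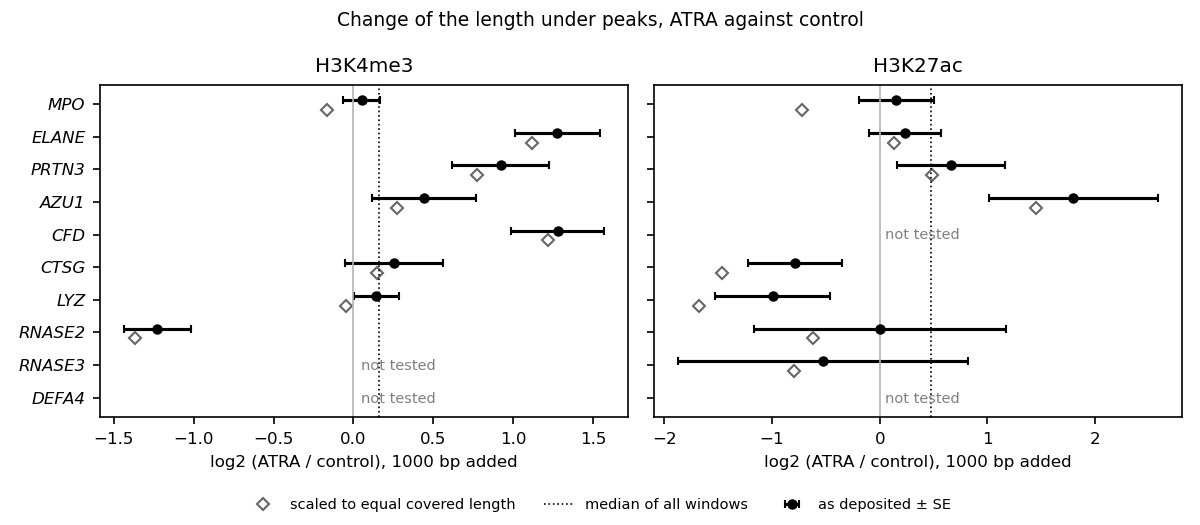
Log2 change of the length under peaks, ATRA against control, with 1000 bp added. Filled circles with bars are the values as deposited ± SE from limma (2 libraries per condition), open diamonds are the values after scaling to equal covered length, and the dotted line is the median of all windows (0.16 for H3K4me3, 0.48 for H3K27ac). ELANE, PRTN3 and CFD lie to the right of the H3K4me3 line under both scalings, RNASE2 lies at -1.23 and CTSG and LYZ lie below 0 for H3K27ac.

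MPO carried the longest H3K27ac of the 10 genes in every library, with 17052 and 19193 bp in the window with ATRA and 13218 and 19771 bp in the control. The peak over its TSS measured 16452 and 20001 bp with ATRA and 12504 and 19771 bp in the control. These peaks were as long as or longer than 99.1% to 99.9% of the peaks of their library. Their deposited -log10 q was 2.12 and 4.35 with ATRA and 3.12 and 3.74 in the control, so none reached 5. That of the H3K4me3 peaks over the gene was 15.6 to 27.1. Unlike H3K4me3, H3K27ac extended far upstream, by 7194 to 11394 bp, and ended inside the gene, 5309 to 10013 bp from the TSS. The conditions overlapped (log2 0.15 ± 0.35; adjusted p = 0.868), and with library scaling the log2 change was -0.72.

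Over the shared locus of the serine proteases, H3K27ac covered 6334 and 6788 bp with ATRA and 0 and 3593 bp in the control. The mean difference was 4764.5 bp (6561 ± 321 against 1797 ± 2541 bp, SD, n = 2 each; exact two-sided permutation p = 0.333, the smallest possible). Control replicate 1, the library with the fewest H3K27ac peaks, had none in this region. Within replicate numbers the difference was 6334 bp for replicate 1 and 3195 bp for replicate 2. With 1 library left out, it ran from 2968 bp (without control replicate 1) to 6561 bp (without control replicate 2). The deposited -log10 q of every H3K27ac peak in the region was under 5, so that the stricter threshold left 0 bp in all 4 libraries.

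The window of AZU1 had 6334 and 6588 bp of this H3K27ac with ATRA and 0 and 3593 bp in the control. It included the peak at the start of PRTN3 (1801 and 695 bp with ATRA, 0 and 895 bp in the control) and, in ATRA replicate 2, 1434 bp at PLPPR3. The rest lay in 2 stretches at AZU1 itself. The first, around the annotated 5′ end of the gene, upstream of the promoter printed above, measured 3630 and 3611 bp with ATRA and 0 and 2296 bp in the control. At the start of the canonical transcript (827837), peaks of 903 and 848 bp covered the TSS in both ATRA libraries. In the control, replicate 2 had 402 bp that began 104 bp inside the transcript and replicate 1 had none. Accordingly, all 300 bases of the AZU1 promoter printed above lay under H3K27ac in both ATRA libraries and 0 in both control libraries. The deposited -log10 q of these ATRA peaks was only 2.74 in replicate 1 and 0.381 in replicate 2. That of the control replicate 2 peak beside the promoter was higher, at 3.60, so this contrast rests on weakly called peaks.

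The log2 change of H3K27ac over the AZU1 window, the peaks at PRTN3 and PLPPR3 included, was 1.80 ± 0.79 (SE, adjusted p = 0.311), and 7.66% of all windows were as high. Over the gene body alone it was 1.17 (adjusted p = 0.287). With the replicate number as a block it was 1.80 ± 0.50 with an adjusted p of 0.0466, a fit in which 19.9% of all windows were called higher. Without the control replicate 2 library it was 2.90 (adjusted p = 0.0443, with 4.6% of windows called higher). The control was then the replicate 1 library alone, which had 0 bp here and is assumed to vary like the ATRA libraries. Without either ATRA replicate or control replicate 1 it did not pass. AZU1 had no H3K4me3 peak in its body, so its promoter carried, of both marks, only the acetylation in the peaks called here.

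PRTN3 had 1801 and 695 bp of H3K27ac with ATRA and 0 and 895 bp in the control, as a peak over its start in each library except control replicate 1 (log2 0.66 ± 0.50; adjusted p = 0.55). CFD had a single peak of 200 bp, in ATRA replicate 2, and was not tested. ELANE had no H3K27ac peak in its body in any library, and the 383, 352, 0 and 352 bp in its window belonged to peaks at PRTN3 and CFD.

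The H3K27ac peak of CTSG measured 903 and 2317 bp with ATRA and 3207 and 3464 bp in the control, so both ATRA values lay below both control values. Its deposited -log10 q was 16.1 and 3.55 with ATRA and 5.08 and 5.19 in the control, so the shortest peak had the highest. The peak covered the TSS in every library except ATRA replicate 1, where it began 484 bp inside the gene. The log2 change was -0.79 ± 0.43 (adjusted p = 0.41), and 2.47% of all windows were as low. H3K4me3 at CTSG, by contrast, overlapped between conditions. Whether the changes of both marks differed was not tested.

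At RNASE2, H3K27ac measured 780 and 9545 bp with ATRA and 919 and 8802 bp in the control. Both replicate 2 libraries had 1 broad peak over the gene and both replicate 1 libraries had only short peaks, of which 1 of 439 bp, with ATRA, lay inside the gene. The log2 change was -0.00 ± 1.17 (adjusted p = 1). RNASE3 likewise had H3K27ac only in replicate 2, with 0 and 3833 bp with ATRA and 0 and 9087 bp in the control (log2 -0.53 ± 1.35; adjusted p = 0.881). The replicate 2 libraries had more H3K27ac peaks than the replicate 1 libraries in both conditions, and the part of this in the values at RNASE2 and RNASE3 was not tested.

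The LYZ window had 1817 and 2195 bp of H3K27ac with ATRA and 2823 and 8336 bp in the control (log2 -0.99 ± 0.54; adjusted p = 0.402). As for H3K4me3, none lay in the gene, and a peak at YEATS4 was present in every library. Control replicate 2 alone had further peaks upstream, of 4050 and 1203 bp, which began at -11583 and -5902 bp from the LYZ start, the first reaching past the window. The deposited -log10 q of the H3K27ac peaks in the LYZ window was only 0.813 to 1.59, so the stricter threshold left none of them. DEFA4 had no H3K27ac peak in its window in any library.

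At the canonical TSS, H3K27ac covered 3 and 6 of the 10 genes in the ATRA libraries and 2 and 5 in the control libraries. For all protein-coding genes, the shares were 31.4% and 38.0% with ATRA and 25.4% and 30.3% in the control. MPO was the only gene of the 10 covered in all 4 libraries. Around the 5′ end, AZU1 was the only gene with both ATRA libraries above both control libraries, beside 31.5% of all 5′ ends with the mark in at least 2 libraries, and 0 genes lay below, beside 4.99%.

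Other genes of the granules were counted for comparison. Of 16 other primary granule, processing and inhibitor genes, 11 could be tested for each mark and none was called by limma. For H3K4me3, ATRA libraries lay above control libraries for 5 of 11 (42% of all windows) and below for 0 (3.97%), and the median log2 change was 0.18. Their highest value was that of SERPINB1, an inhibitor of the granule proteases (0.85 ± 0.20), and the lowest that of NEU1, a sialidase (-0.01 ± 0.13). For H3K27ac, 7 of 11 lay above (45.5% of all windows) and 0 below (4.3%), with a median of 0.73. The highest was SERPINA1, which encodes the elastase inhibitor alpha-1-antitrypsin, with 31032 and 19260 bp with ATRA and 2901 and 5742 bp in the control (log2 2.31 ± 0.45; adjusted p = 0.103). The lowest was STOM (-0.16 ± 1.07).

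Secondary and tertiary granules form after the promyelocyte stage. Of 14 genes of their content, 4 could be tested for H3K4me3. Of these, 1 (HP, haptoglobin, log2 1.24 ± 0.46) lay above the control and 0 below, beside 42% and 3.97% of all windows. HP had 574 and 2557 bp with ATRA and 0 bp in both control libraries. It entered the test only through its ATRA libraries and could only lie above. The median was 0.20 and the lowest value was that of LCN2 (-0.03 ± 0.15). For H3K27ac, 10 could be tested, 7 lay above and 0 below, beside 45.5% and 4.3% of all windows, and the median was 1.48. The highest was OLFM4, with 2979 and 6891 bp with ATRA and 0 bp in both control libraries (2.49 ± 0.47, adjusted p = 0.101). It likewise entered the test only through its ATRA libraries and could only lie above. The lowest was TCN1 (-0.45 ± 0.63). None of the genes of this list passed the limma test. For H3K27ac, the medians were thus 0.08 for the main set, 0.73 for the other primary granule, processing and inhibitor genes and 1.48 for the later granule genes. That of all windows was 0.48. After library scaling the medians of the 3 lists were -0.67, 0.05 and 0.95, beside -0.14 for all windows. The differences between lists were not tested. The main set counts ELANE and LYZ, which had no H3K27ac peak in the gene body, and the middle list is not made of granule contents alone. The windows of AZU1, PRTN3 and ELANE in the main set share the H3K27ac peak at the start of PRTN3, so their values are not independent.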

How the data were processed

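H3K4me3 and H3K27ac were measured by ChIP-seq in HL-60 cells, with 2 libraries per mark and condition. Per the labels and methods, the authors trimmed adapters with cutadapt, mapped the reads with Bowtie to hg19 and, for each library on its own, ran MACS2 in broad mode (human genome size, no fragment model). Input libraries were made, and their use in the call is not stated. The authors deposited peak positions and a −log10 q for each peak, which was used only as a filter. The deposited enrichment and −log10 p columns held impossible values and were not used, nor was the deposited display score. Depth is unknown, so no counting interval is given.

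Genes came from GENCODE release 44 on GRCh37. Length under peaks in the gene body with 10 kb on each side was tested as log2(bp + 1000) with limma 3.58.1 (R 4.3.3; empirical Bayes with trend, two-sided, Benjamini-Hochberg over all windows with peaks in at least 2 of 4 libraries), after a check on simulated data. The shared locus used an exact permutation test. Nothing states that replicates were separate cultures, so p-values measure only the spread between these libraries. Libraries with the same number carry a common tag in their peak names, and their deviations from the condition means correlated across windows (Pearson r = 0.256 for H3K4me3, 0.535 for H3K27ac). The numbers were therefore read as pairing them. The main limma fit and the permutation test did not use this pairing, and the fit with it is an alternative. Covered length also differed by number (H3K27ac replicates 1 and 2: 64.8 and 86.1 Mb with ATRA, 28.8 and 54.0 Mb in the control). Its part in the correlation was not tested. The members, gene lists and motifs were chosen with earlier results of these data known. All 10 genes are named. Of the lists, the genes with the highest and lowest log2 change are named. Peak figures used Python 3.11.15 and matplotlib 3.10.9. One marker gene of the lists is not reported here.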

Additional observations from a re-analysis of the deposited data

How the results depend on the processing

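The main limits are 2 libraries per condition, unknown depth, and H3K27ac libraries that differed widely in covered length. Peaks kept only where both replicates had one are selected for agreement between replicates, which lowers the spread. Of the genes tested, 0 were called for either mark in the main comparison.

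For H3K4me3, CFD was called higher with peaks found in both replicates (1 gene; log2 1.48, adjusted p = 0.0303). This setting removed its only control peak, so the call is no test. AZU1 was called with peak numbers (1 gene; 0.58), 2 per ATRA and 1 per control library. Without spread, its p is void. RNASE2 was called lower with peaks found in both replicates (1 gene; -1.23, adjusted p = 0.0488), beside 21 of 13222 windows. It was also called lower with library scaling (1 gene; -1.37, adjusted p = 0.0488), beside 29 of 13387 windows. Over its alternatives, its adjusted p ran from 0.0488 to 1. The change of MPO turned to -0.042 with peaks found in both replicates and to -0.17 with library scaling, that of LYZ to -0.046 with library scaling, and that of CTSG to -0.072 without control replicate 2 (0.58 without the other one). Genes lower around the TSS were 0, in place of 1, with a -log10 q of at least 5, and 1 to 2 with a library left out.

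For H3K27ac, control replicate 1 had no peak in the AZU1 window. Keeping peaks found in both replicates therefore removed those of control replicate 2, and the window could only lie above. AZU1 was called higher in this setting (1 gene; 2.75, adjusted p = 0.0074), beside 2751 of 12402 windows, which is no test. It was also called without control replicate 2 (2.90, adjusted p = 0.0443), so that 0 to 1 genes were called with a library left out, and its log2 change over all alternatives was 0.70 to 3.43, with adjusted p from 0.0074 to 0.752. The median log2 change of the genes tested, 0.08, was 0.39 with 25 kb on each side, -1.65 with a -log10 q of at least 5 (1 gene left), -0.24 with peaks of at least 1000 bp, -0.47 with an equal number of peaks, -0.67 with library scaling, 0.40 with peak numbers, and -0.48 to 0.45 with a library left out, the lowest without control replicate 1 and the highest without control replicate 2. MPO turned to -0.72 with library scaling and to -0.12 without control replicate 1 (0.43 without the other one). RNASE2, near 0, turned to 0.26 over the gene body alone, 0.053 with peaks of at least 1000 bp, 0.021 with a pseudocount of 5000 bp and 0.29 with peak numbers, and ran from -1.28 to 1.28 with a library left out (1.17 without control replicate 2). RNASE3 ran from -2.20 to 0.61 with a library left out. Genes higher around the TSS, 1 in the main comparison, were 0 with a -log10 q of at least 5, 2 with peaks found in both replicates and 1 to 3 with a library left out, and genes lower were 1, in place of 0, with 2000 bp on each side and with a -log10 q of at least 5, and 0 to 1 with a library left out. With a -log10 q of at least 5 the difference over the shared locus was 0 bp. The causes were not tested.

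With the replicate number as a block, AZU1 was the 1 gene called for H3K27ac (log2 1.80, adjusted p = 0.0466), beside 19.9% of all windows called higher. The block changed no other call of these genes. Over all windows it called 108 higher and 15 lower for H3K4me3, against 2 and 2 without it, and 2662 and 167 for H3K27ac, against 0 and 0. Among the other settings, the windows called for H3K4me3 numbered 0 with the gene body alone, 136 and 21 with peaks found in both replicates, 57 and 29 with library scaling, and 476 and 205 with peak numbers. For H3K27ac, 2751 and 252 were called with peaks found in both replicates, 682 and 103 with peak numbers, and 580 and 1 without control replicate 2. With the start of the canonical transcript in place of the 5′ end, an alternative chosen after the data were seen, the numbers of genes higher and lower around the TSS did not move.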
